A study of Mus musculus with 12 samples.

Results

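Xaf1, Rtp4, Mndal and Trim21 are interferon-inducible genes that had some of the largest differences between BNL CL.2 liver cells cultured with and without RAW 264.7 macrophages. They were chosen by that measured difference, so their macrophage differences are given here as a description and were not tested. The members are the 8 probe sets, of 45101 on the array, whose annotation names exactly 1 of the 4 genes, and each gene has 2 of them. One further probe set names Mndal together with 3 other genes and was left out.

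BNL CL.2 is a cell line from mouse embryonic liver, and RAW 264.7 is a mouse macrophage line. Gene expression was measured on 12 Affymetrix arrays, 3 in each of 4 groups, after 24 h of culture. In RAW_FAC the liver cells faced macrophages in a culture insert and received 100 micromolar ferric ammonium citrate (FAC), a soluble iron salt. RAW had the macrophages without the iron salt, and FAC had the iron salt without macrophages. In the group called alone, the liver cells had neither, and per the treatment description the insert then held more BNL CL.2 cells. All groups use a single liver line and a single macrophage line, and the labels do not say whether replicates were separate cultures, so the p-values measure only the spread between these samples, which may be technical.

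Interferons are secreted proteins that bind receptors on neighbouring cells. Type I interferons act through JAK kinases and a protein complex that contains IRF9, which binds interferon-stimulated response elements in the promoters of its target genes. Liver cells respond to interferon as part of the defence against viruses. The 4 members are interferon-inducible, and their proteins have different functions. XAF1 binds XIAP, an inhibitor of caspases, and opposes it. RTP4 helps some G protein-coupled receptors to reach the cell surface. MNDAL belongs to the mouse HIN-200 family of interferon-inducible nuclear proteins that bind DNA. TRIM21 is a ubiquitin ligase that also binds antibodies inside cells and marks antibody-coated viruses for breakdown.

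The bases just upstream of the transcription start were read for the members, because the 4 genes were higher in the same arrays. RefSeq promoters of build GRCm38.p6 matched 3 of the 4 genes, and Rtp4 was not matched. The windows below hold the 250 bases before each start, 5′ to 3′ on the strand of the gene. They lie at chr11:72301379-72301628 (plus strand) for Xaf1 and at chr7:102565483-102565732 (minus strand) for Trim21. Mndal has 2 starts in the table, with windows at chr1:173879959-173880208 and chr1:173880188-173880437 (minus strand), which overlap. Capitals mark matches, on either strand, to GAAA, any 2 bases and GAAA, the core of an interferon-stimulated response element, or to AANNGAAA, the shorter core that interferon regulatory factors bind and that lies inside the first.
Xaf1: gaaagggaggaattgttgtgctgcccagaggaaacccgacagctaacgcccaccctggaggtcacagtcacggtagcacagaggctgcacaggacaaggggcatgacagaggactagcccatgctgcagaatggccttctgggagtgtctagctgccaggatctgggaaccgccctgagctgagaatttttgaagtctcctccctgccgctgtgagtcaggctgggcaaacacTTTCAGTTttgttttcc
Mndal, first window: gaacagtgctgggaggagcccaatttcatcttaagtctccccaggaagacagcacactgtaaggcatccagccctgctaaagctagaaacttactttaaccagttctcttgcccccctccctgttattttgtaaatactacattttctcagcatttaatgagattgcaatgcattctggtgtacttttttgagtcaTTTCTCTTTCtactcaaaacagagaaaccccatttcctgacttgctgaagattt
Mndal, second window: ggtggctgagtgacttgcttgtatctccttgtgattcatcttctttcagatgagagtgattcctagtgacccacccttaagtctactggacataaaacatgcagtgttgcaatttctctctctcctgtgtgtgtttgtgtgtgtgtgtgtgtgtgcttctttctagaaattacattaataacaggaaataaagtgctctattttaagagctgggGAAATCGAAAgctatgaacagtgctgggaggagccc
Trim21: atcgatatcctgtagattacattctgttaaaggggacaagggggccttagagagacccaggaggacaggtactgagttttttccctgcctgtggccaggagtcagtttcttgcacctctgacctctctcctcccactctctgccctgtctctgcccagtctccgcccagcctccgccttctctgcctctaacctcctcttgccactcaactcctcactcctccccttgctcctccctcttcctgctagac

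The longer motif had 1 match in each Mndal window and none in the windows of Xaf1 and Trim21. The match lay 54 to 45 bases before the start in the first Mndal window and 36 to 27 bases before it in the second. Xaf1 had 1 match to the shorter motif, 17 to 10 bases before its start. Over all 32851 promoter windows of this length, 2.98% held the longer motif and 21.3% the shorter one. Counted per gene, the longer motif was present in 13 of the 34 interferon-stimulated genes listed below that had a promoter in the table (38.2%), against 3.46% of all 27025 genes. A match is a description of these letters and not a shown binding site.

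The deposited values are log2 signals, so a difference of 1 is a 2-fold difference. They ran from 2.42 to 14.6 over the 12 arrays, and the array medians lay between 5.63 and 5.68. For each gene, the probe set with the larger macrophage difference is called the leading one and the other the second one. Changes are differences between group means over n = 3 arrays a group. The macrophage average is the mean of RAW_FAC minus FAC and RAW minus alone, and its standard error (SE) comes from limma, a linear model fitted over all probe sets. Arrays of 2 groups that carry an equal replicate number form a same-number pair.

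Xaf1 had the largest macrophage average of all 45037 probe sets tested. Its leading probe set, 1443698_at, read 7.66, 8.95 and 9.98 in RAW_FAC replicates 1, 2 and 3, against 6.42, 6.19 and 5.88 in FAC. In RAW it read 6.94, 8.70 and 9.58, against 5.87, 5.999 and 6.36 in alone. Every array with macrophages was above every array without, but replicate 1 was well below the other arrays of both macrophage groups. The pair differences between RAW_FAC and FAC were 1.25, 2.76 and 4.10, which are 2.37-fold, 6.79-fold and 17.2-fold. Those between RAW and alone were 1.07, 2.70 and 3.22, or 2.09-fold, 6.48-fold and 9.31-fold. Both number-1 pairs thus had a far smaller difference than both number-3 pairs. The macrophage average was 2.52 ± 0.41 (SE), or 5.72-fold.

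Rtp4, the receptor transporter, was the next largest, and its arrays had the same order as those of Xaf1 within RAW_FAC and within RAW. Probe set 1418580_at read 6.28, 8.01 and 9.07 in RAW_FAC replicates 1, 2 and 3, against 5.14, 5.46 and 5.44 in FAC. It read 5.69, 7.69 and 8.81 in RAW, against 5.001, 5.32 and 5.35 in alone. The groups with and without macrophages did not overlap, and replicate 1 of RAW, at 5.69, stood only a little above the highest array without macrophages, at 5.46. The pair differences were 1.14, 2.55 and 3.63 for RAW_FAC minus FAC and 0.69, 2.37 and 3.46 for RAW minus alone. The macrophage average was 2.31 ± 0.48 (SE), or 4.95-fold.

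Mndal, the HIN-200 family member, had a smaller difference that both of its probe sets showed. The leading one, 1426906_at, read 5.03, 6.70 and 6.48 in RAW_FAC replicates 1, 2 and 3, against 4.24, 4.69 and 4.56 in FAC. It read 4.48, 6.28 and 6.25 in RAW, against 4.21, 4.05 and 4.58 in alone. Here RAW and alone overlapped, because RAW replicate 1 lay below alone replicate 3. The second probe set, 1452231_x_at, read 6.29, 7.07 and 7.35 in RAW_FAC, against 5.66, 5.70 and 5.37 in FAC. In RAW it read 5.97, 6.78 and 7.16, against 5.34, 5.51 and 5.38 in alone, and its groups did not overlap. The macrophage average was 1.48 ± 0.32 for the leading and 1.27 ± 0.19 (SE) for the second probe set. The suffix of the second marks probes that can also match related sequences, and the HIN-200 genes are close relatives, so its signal may include other family members.

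Trim21, the antibody-binding ubiquitin ligase, had the smallest and the most even difference of the 4 genes. The leading probe set, 1448940_at, read 7.01, 7.27 and 7.54 in RAW_FAC replicates 1, 2 and 3, against 6.68, 6.54 and 6.77 in FAC. It read 7.18, 7.23 and 7.46 in RAW, against 6.64, 6.39 and 6.63 in alone. The 6 arrays with macrophages were all above the 6 without, with pair differences of 0.33, 0.72 and 0.77 for RAW_FAC minus FAC and 0.54, 0.84 and 0.83 for RAW minus alone. The second probe set, 1418077_at, read 6.17, 6.26 and 6.20 in RAW_FAC, against 6.06, 5.90 and 6.04 in FAC. It read 6.24, 6.33 and 6.39 in RAW, against 5.99, 5.72 and 5.79 in alone, again without overlap. The macrophage average was 0.67 ± 0.09 for the leading and 0.35 ± 0.06 (SE) for the second probe set.

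**Figure D1:**
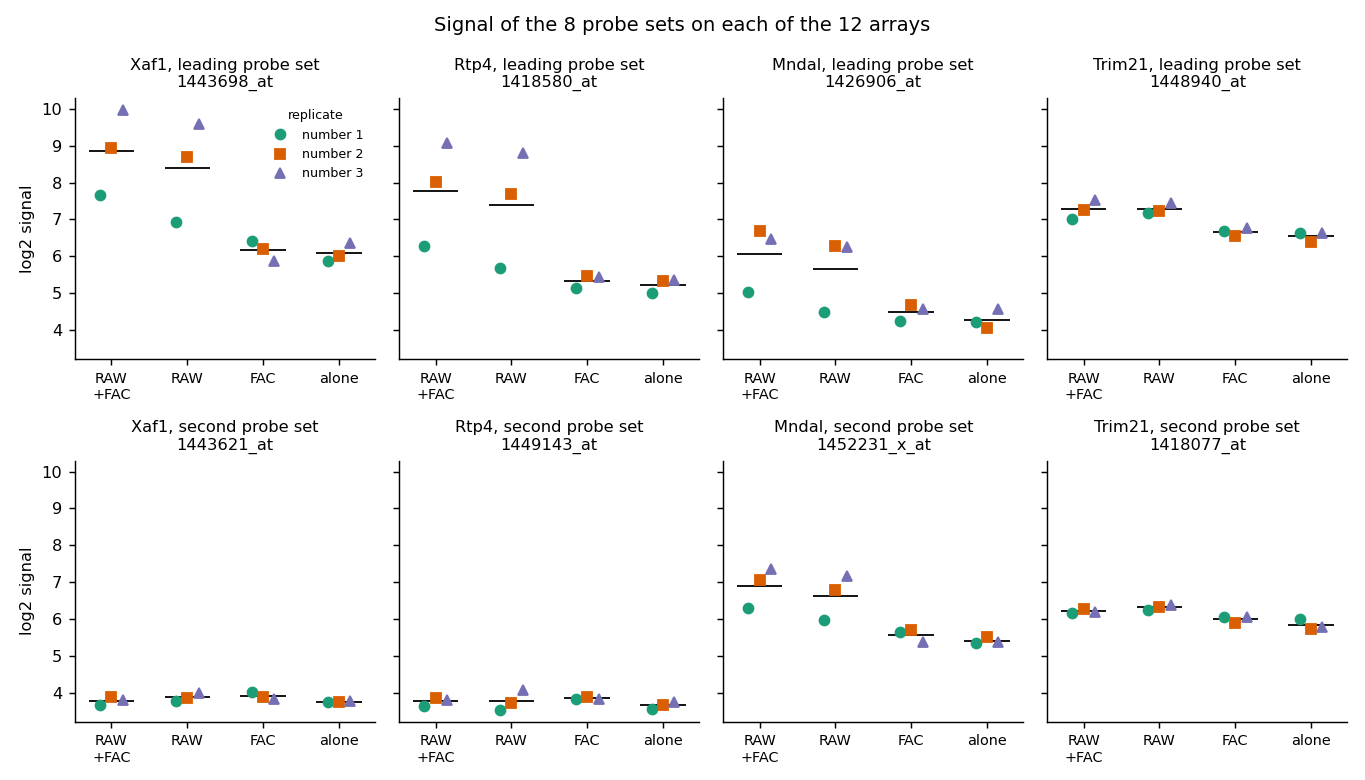
Log2 signal (vertical axis) of the 8 probe sets on each of the 12 arrays, by group (horizontal axis), with the leading probe set of each gene in the top row and the second one below it. Points are arrays, marked by replicate number, and bars are group means. Xaf1 and Rtp4 spread widely in RAW_FAC and RAW, with number 1 lowest, while their second probe sets stay between 3.53 and 4.08.

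The second probe sets of Xaf1 and Rtp4 did not follow the leading ones. Xaf1 probe set 1443621_at read 3.66, 3.88 and 3.81 in RAW_FAC, against 4.01, 3.87 and 3.83 in FAC. It read 3.77, 3.86 and 3.99 in RAW, against 3.76, 3.74 and 3.76 in alone. All 12 values lay between 3.66 and 4.01. RAW_FAC and FAC overlapped, while the RAW arrays lay just above the alone arrays, by 0.01 to 0.23 in the pairs. Rtp4 probe set 1449143_at read 3.64, 3.86 and 3.81 in RAW_FAC, against 3.83, 3.88 and 3.84 in FAC. It read 3.53, 3.72 and 4.08 in RAW, against 3.55, 3.66 and 3.75 in alone, with overlap in both comparisons. Both probe sets are dim: their means over the 12 arrays stood at percentiles 16.3 and 14.9 of all probe sets, against 67.9 and 60.1 for the leading ones. The annotation gives the same target record for both probe sets of Rtp4, Mndal and Trim21 and different records for those of Xaf1. Within an array, the leading Xaf1 probe set exceeded the second by 3.17 to 6.17 with macrophages and by 2.04 to 2.60 without. For Rtp4 this gap was 2.16 to 5.26 with macrophages and 1.31 to 1.66 without. A gap between probe sets of a gene also holds their different binding strengths, so only its change between groups can be read.

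**Figure D2:**
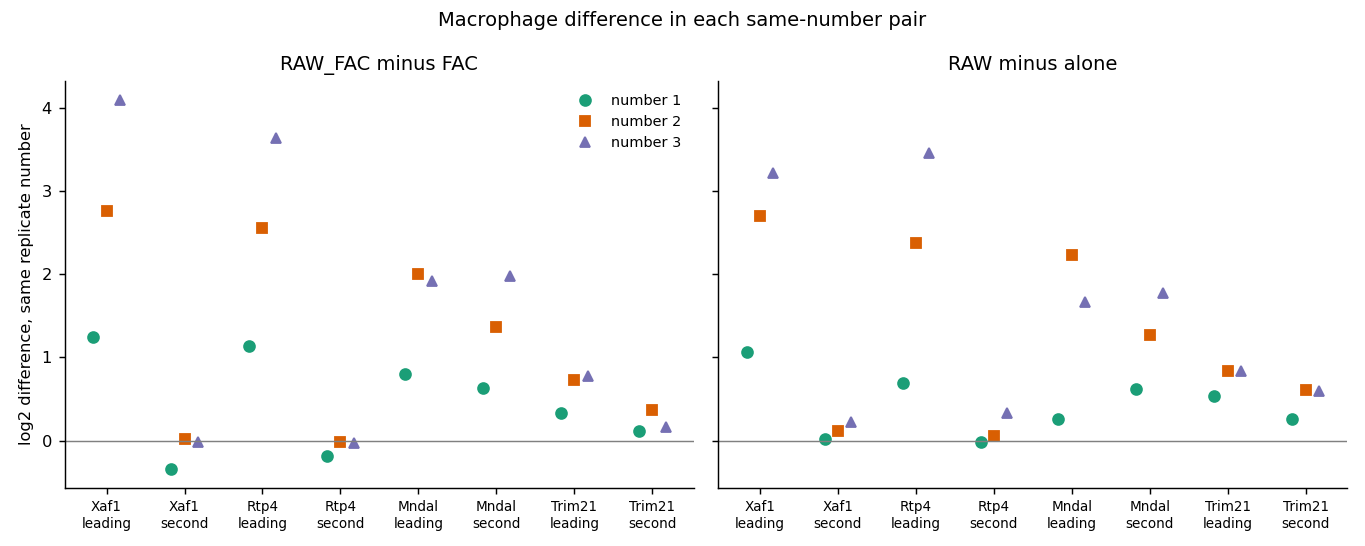
Log2 difference (vertical axis) in each same-number pair for RAW_FAC minus FAC (left) and RAW minus alone (right), for the leading and second probe set of each gene (horizontal axis). Points are pairs, marked by replicate number. Number 1 gives the smallest difference of the leading probe set of each gene in both panels, as low as 0.26 for Mndal.

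Of the 8 probe sets, 6 were higher with macrophages in 6 of 6 same-number pairs, and 5 had all 6 macrophage arrays above the 6 others. Over the whole array 61 of 45037 probe sets, 0.135%, had that separation. Counted per gene, 563 of 18193 (3.09%) were higher in 6 of 6 pairs. The members were chosen for such a difference, so their counts are a description. Ranked by macrophage average over the 18193 genes, each at its brightest probe set, Xaf1 was 1, Rtp4 was 2, Mndal was 5 and Trim21 was 18. Thus Trim21 is not among the very largest differences. Usp18, which restrains interferon receptor signalling, lay between Rtp4 and Mndal at 1.46, as did Irf9 at 1.41. Next to Trim21 stood Oas1a, which senses double-stranded RNA, at 0.68 above it and Ifit1, which binds viral RNA, at 0.66 below it. These 4 neighbours are not members.

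The size of the differences rested on the replicate number. Without the 4 arrays numbered 1, the macrophage average was 3.19 for Xaf1, 3.00 for Rtp4, 1.95 for the leading Mndal probe set and 0.79 for the leading Trim21 one. Without those numbered 3 it was 1.94, 1.69, 1.32 and 0.61, in the same order of genes. Arrays with the same number deviated together from their group means over all probe sets, with correlations of 0.24 to 0.43 over 18 pairs of arrays. In the 6 arrays without macrophages the spans were narrower, at 5.87 to 6.42 for Xaf1 and 5.001 to 5.46 for Rtp4.

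RNA quality and the markers of macrophages were set beside these differences. The log2 signal of 3′ over 5′ probe sets of beta-actin was 0.32 to 0.40 in RAW_FAC, 0.33 to 0.42 in RAW, 0.38 to 0.41 in FAC and 0.36 to 0.41 in alone. For Gapdh it was -0.03 to 0.11 in RAW_FAC, -0.05 to 0.09 in RAW, -0.05 to 0.06 in FAC and -0.03 to 0.09 in alone. All 20 listed macrophage markers were measured, and 0 of 20 had the 6 macrophage arrays above the 6 others, where 27 of 18193 genes did (0.148%). At that share a list of 20 genes would seldom hold such a gene, so this count does not set the markers apart. Their summed log2 signal was 110.0 to 111.1 in RAW_FAC, 110.0 to 111.8 in RAW, 109.0 to 111.2 in FAC and 109.4 to 110.0 in alone. The defining markers Ptprc, Csf1r, Adgre1, Spi1, Tyrobp, Itgam and Cd68 read 3.32 to 6.58 on all arrays, and their macrophage averages were -0.09 to 0.07. The largest macrophage averages among the 20 markers were those of Cd53 at 0.21 and Itgb2 at 0.18, and neither passed. Of the 20, 14 lay above 0, with a median of 0.05, against 9786 of 18193 and 0.01 over all genes. Cd14 was bright on all 12 arrays, at 11.9 to 12.2.

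Liver markers were only partly present. Alb, which encodes albumin, read 5.02 to 5.38 and Ttr, which encodes transthyretin, 6.36 to 6.59, near the array medians. Afp, the fetal liver protein alpha-fetoprotein, read 8.30 to 9.71. The liver transcription factor gene Hnf4a read 10.2 to 10.7, and the epithelial keratin genes Krt8 and Krt18 read 14.0 to 14.3. In such bulk RNA, fewer cells that express a gene and less RNA per cell cannot be told apart.

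Iron was tested for the members, because the iron contrasts did not choose them. With macrophages, the leading probe set of Xaf1 averaged 8.86 ± 1.16 in RAW_FAC and 8.41 ± 1.35 in RAW (SD, n = 3 each). Rtp4 averaged 7.79 ± 1.41 in RAW_FAC and 7.40 ± 1.58 in RAW. For the leading Mndal probe set these means were 6.07 ± 0.90 in RAW_FAC and 5.67 ± 1.03 in RAW. At the leading probe sets of Xaf1 (0.25 to 0.72) and Rtp4 (0.26 to 0.59), RAW_FAC was above RAW in 3 of 3 same-number pairs. Both Mndal probe sets were too (0.23 to 0.56 and 0.18 to 0.33). Trim21 averaged 7.27 ± 0.26 in RAW_FAC and 7.29 ± 0.15 in RAW at its leading probe set and was higher in 2 of 3 pairs. The second probe sets were higher in 1 of 3 pairs for Xaf1, 2 of 3 for Rtp4 and 0 of 3 for Trim21. The share of all probe sets higher in 3 of 3 pairs was not counted, so these pair counts are a description.

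None of these iron differences passed in limma. RAW_FAC minus RAW was 0.46 for Xaf1 (95% confidence interval -0.80 to 1.71), 0.39 for Rtp4 (-1.09 to 1.86), 0.40 for the leading Mndal probe set (-0.58 to 1.38) and -0.02 for Trim21 (-0.29 to 0.25). The lowest adjusted p over the 8 probe sets was 0.921. FAC minus alone was 0.08 for Xaf1 (-1.17 to 1.34) and ranged from 0.08 to 0.21 over the 8, with adjusted p of 1.00 throughout. The average of both iron differences ranged from 0.03 to 0.31, with a lowest adjusted p of 0.949, or 0.692 with a replicate block. Over the whole array this fit called 0 of 45037 probe sets (0%) with iron in any of these 3 contrasts, although 2513 had an unadjusted p under 0.05 in the average. With the block, which enters the replicate number as a term, RAW_FAC minus RAW called 4 higher and 4 lower (0.00888% each), and the average called 130 higher (0.289%) and 36 lower (0.0799%), none of them a member. For RAW_FAC minus RAW the intervals with the block were -0.57 to 1.48 for Xaf1 and -0.63 to 1.41 for Rtp4, which still hold a 2-fold higher level. For the average they were -0.45 to 0.99 for Xaf1 and -0.47 to 0.97 for Rtp4. All groups share 1 spread in these fits, although the groups were not equally spread. The SD of the leading Xaf1 probe set was 0.27 in FAC and 0.25 in alone, against 1.16 in RAW_FAC and 1.35 in RAW. For Rtp4 it was 0.18 in FAC and 0.19 in alone, against 1.41 in RAW_FAC and 1.58 in RAW. The intervals of FAC minus alone for both genes are therefore wider than the spread of the arrays without macrophages would give. Fitting each pair of groups by itself called no member either.

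Whether iron altered the macrophage difference was tested as an interaction, RAW_FAC minus FAC against RAW minus alone. The macrophage difference was 2.70 with iron and 2.33 without for Xaf1, and 2.44 with iron and 2.17 without for Rtp4. It was 1.57 with iron and 1.39 without for the leading Mndal probe set, and 0.61 with iron and 0.74 without for the leading Trim21 one. The interactions ranged from -0.28 to 0.38 over the 8 probe sets, with adjusted p of 1.00 for each in limma, and 0 of 45037 probe sets passed. The interval was -1.40 to 2.15 for Xaf1 and -0.51 to 0.25 for Trim21.

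**Figure D3:**
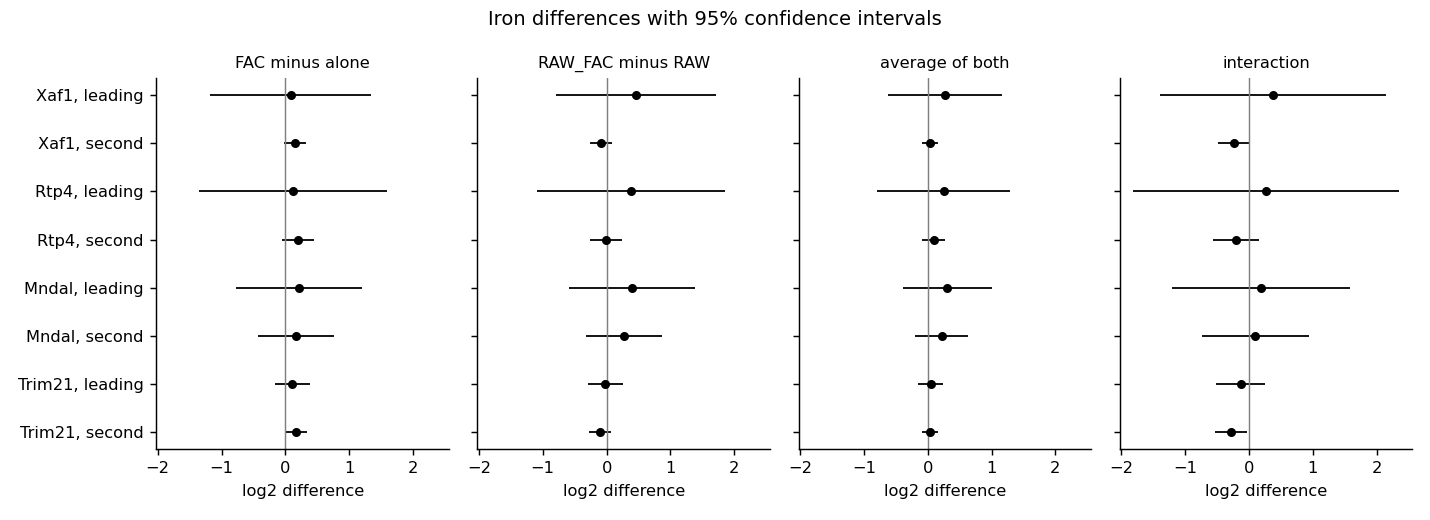
Differences with iron in log2 units (horizontal axes) for the leading and second probe sets (rows), with 95% confidence intervals from limma as bars. Panels show FAC minus alone, RAW_FAC minus RAW, their average and the interaction. The point estimates lie between -0.28 and 0.46, and the intervals of the leading Xaf1 and Rtp4 probe sets are the widest.

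The interferon response around the members was described with a list of 49 interferon-stimulated genes, 44 of them measured, which holds none of the 4 members. Irf9, the DNA-binding part of the complex described above, rose by 1.41 ± 0.16 (SE) in the macrophage average (adjusted p = 0.0263, limma) and was higher in 6 of 6 pairs. It was the only probe set of 45037 called in that contrast (0.00222%), and 1 of 44 list genes therefore passed. Leaving out any single array other than RAW_FAC replicate 1 or RAW replicate 1 lost the call of Irf9, with values between 1.31 and 1.45 log2 units. The median macrophage average of the list was 0.16, against 0.01 over all genes, and 40 of the 44 genes lay above 0. Of the 44 genes, 17 (38.6%) were higher in 6 of 6 pairs, against 563 of 18193 (3.09%) over all genes. The list was chosen with earlier results of these data known, so its counts beside those over all genes are a description.

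Separation of all 6 macrophage arrays from the 6 others held for 7 of the 44 genes (15.9%), against 0.148% over all genes. Besides Irf9 these were Usp18, Ifih1, Igtp, Irgm1, Dtx3l and Lgals3bp, of which Usp18, Ifih1, Dtx3l and Lgals3bp are named after their values were seen. None of these 6 passed the test. Usp18 read 4.68 to 7.02 with macrophages and 4.06 to 4.49 without. Ifih1, a sensor of long double-stranded RNA, read 7.34 to 8.47 with macrophages and 6.80 to 7.25 without. Igtp and Irgm1, interferon-induced GTPases, had macrophage averages of 0.84 ± 0.16 and 0.58 ± 0.11 (SE).

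Other well-known interferon genes stayed near 0, among them genes that are strongly induced in many cells. Mx1, an antiviral GTPase, had a macrophage average of -0.10 and Rsad2, which encodes viperin, one of -0.03. Ifit3 was at 0.07, Oasl2 at 0.04 and the chemokine gene Cxcl10 at 0.05. These 5 genes were named after their values were seen. The median over the 44 genes by pair was 0.14, 0.23 and 0.45 for RAW_FAC minus FAC in numbers 1, 2 and 3, and 0.06, 0.24 and 0.26 for RAW minus alone. Number 1 again gave the smallest value in both comparisons. Over all genes these 6 medians lay between -0.01 and 0.02.

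**Figure D4:**
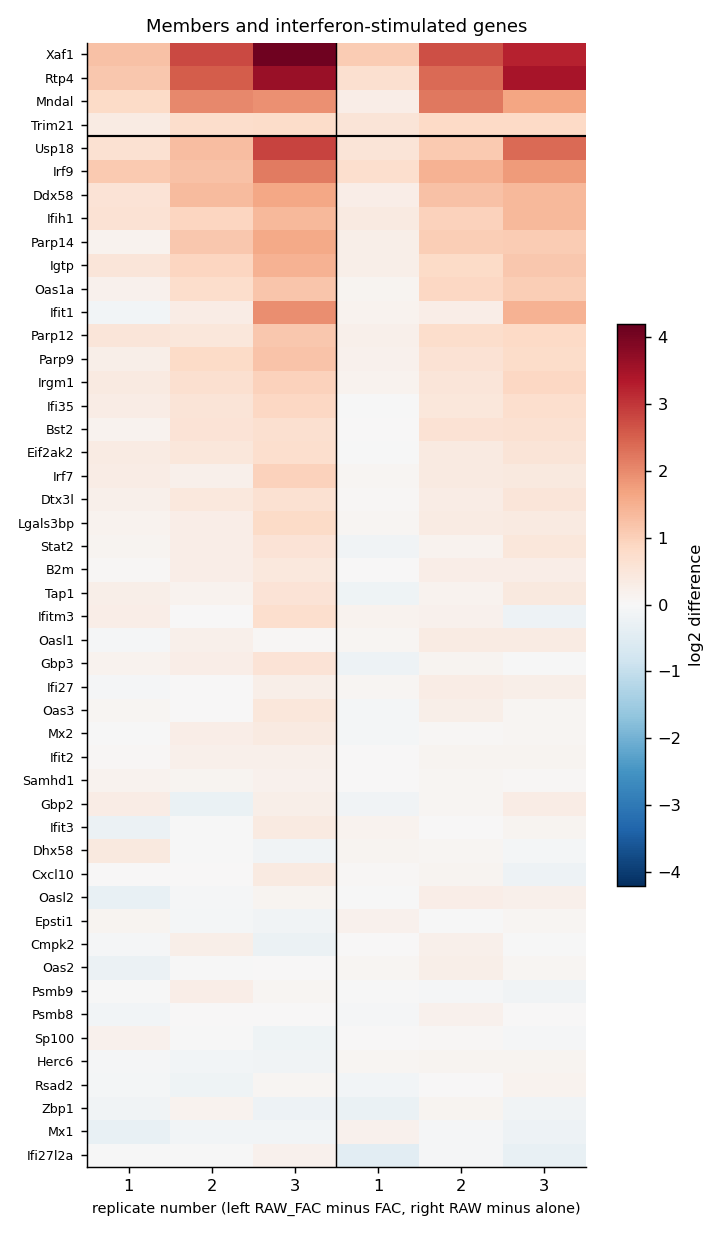
Log2 differences (colour) in the 6 same-number pairs (columns; RAW_FAC minus FAC left, RAW minus alone right) for the leading probe sets of the members (rows above the line) and the 44 interferon-stimulated genes (rows below it, ordered by macrophage average). The deepest red lies in number 3, on the left for Xaf1 at 4.10 and on the right for Rtp4 at 3.46. Most rows in the lower part of the list are near white.

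Genes nearer to each member were counted from further lists. Of 7 measured interferon ligand genes none passed, with macrophage averages of -0.02 to 0.09; Ifnb1, which encodes interferon beta, was at 0.00 and read 5.22 to 5.66 on all arrays. These values are of the RNA on the BNL CL.2 arrays, and RNA of the RAW 264.7 cells was not analysed here. Of 19 genes of interferon receptors and signalling, Irf9 alone passed, and the median was 0.02. Over all genes 9786 of 18193 lay above 0 in the macrophage average. The 7 other HIN-200 genes measured were all above 0, with a median of 0.11, and none passed. The largest was Ifi202b, a mouse-specific DNA-binding member, at 0.93 ± 0.27, with 7.89 to 9.87 with macrophages and 7.83 to 8.64 without. Ifi204 followed at 0.51 ± 0.15 (SE).

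Among 33 other TRIM family genes the median was 0.04, and none passed. Of the 33, 26 lay above 0, against 9786 of 18193 over all genes. In 6 of 6 pairs 6 (18.2%) were higher, against 3.09% over all genes. Trim12c had a macrophage average of 0.77 ± 0.22, although its other probe set gave 0.15. Trim14, an adaptor of antiviral signalling, had 0.48 ± 0.11 (SE) at its brighter probe set and 0.04 at the other. Of 12 genes of TRIM21 function none passed, with a median of 0.02 and the largest values for Sqstm1, an autophagy receptor, at 0.11 and Irf8 at 0.06. Of 16 genes of XIAP and caspase control none passed, with a median of 0.02, Birc3 at 0.10 and Bbc3 at 0.09. Of the 7 other RTP and REEP genes measured, the receptor transporter Rtp3 was at -0.01 and Reep3 at -0.10, and none passed. For these lists without a called gene, 1753 probe sets of the array had an unadjusted p under 0.05 in the macrophage average, or 2961 with the replicate block, which called 3 probe sets (0.00666%) and none of these lists' genes.

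**Figure D5:**
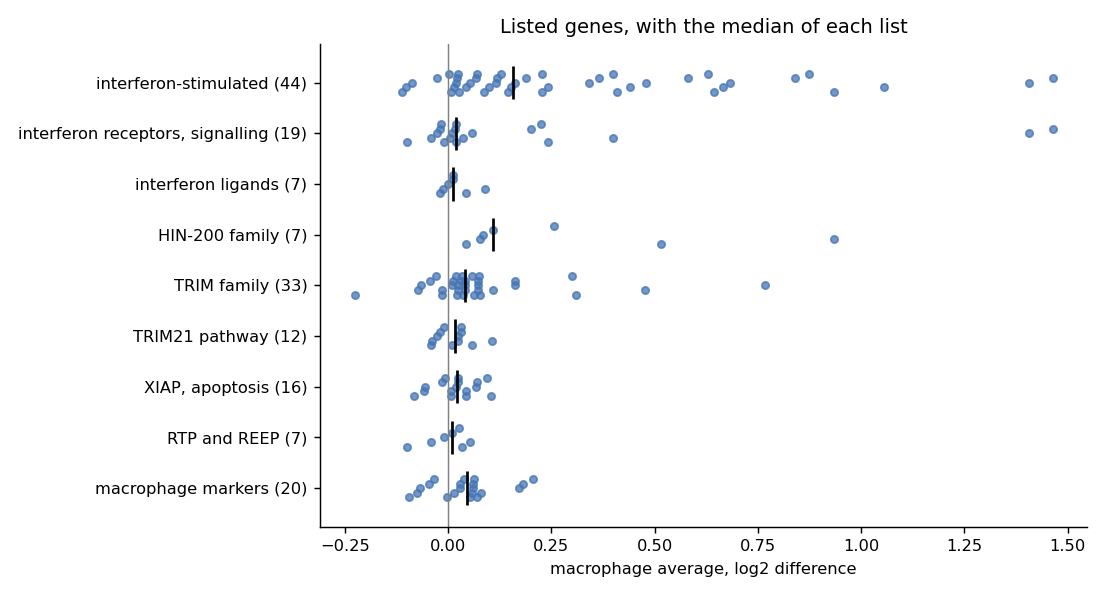
Macrophage average in log2 units (horizontal axis) of each measured gene in 9 lists (rows, number of genes in brackets). Points are genes and black bars are list medians; the members are not shown. The interferon-stimulated list has the highest median, 0.16, and the macrophage markers lie between -0.09 and 0.21.

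The genes whose signal followed each member most closely over the 12 arrays included other members. They were ranked by Pearson's r among the 725 genes whose group means spanned at least 0.3, as a description, because the arrays share replicate numbers and groups. The members were also chosen by their macrophage difference, and that shared step raises r between them over the 12 arrays. For Xaf1 they were Mndal at its second probe set (0.990), Igtp (0.990), Rtp4 (0.984), Ddx58 (0.979) and Parp9 (0.978). For Rtp4 they were Ddx58 (0.990), Trim14 (0.988), Igtp, Parp9 and Samd9l (0.985 each). Ddx58 encodes the RNA sensor RIG-I, and Parp9 acts with Dtx3l in interferon signalling. The closest genes to Mndal, by its leading probe set, were Ddx58 (0.961), Parp9 (0.957), Rtp4 (0.956), Samd9l and Ifi202b (0.955 each). Trim21 had lower values, with Irgm1 (0.935), Xaf1 (0.929), Helz2 (0.920), Irf9 (0.918) and Mndal at its second probe set (0.917). The leading Mndal probe set gave r of 0.944 with Xaf1 and 0.860 with Trim21. Over the 6 pairs of members, r within the 6 macrophage arrays alone ran from 0.654 for Mndal and Trim21 to 0.997 for Xaf1 and Rtp4. Within the 6 arrays without macrophages it ran from -0.12 for Rtp4 and Trim21 to 0.657 for Rtp4 and Mndal. For Xaf1 and Rtp4 it was 0.06 in those arrays.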

How the data were processed

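RNA of BNL CL.2 cells was measured on 12 Affymetrix arrays. The authors deposited log2 signals per probe set, made with the affy package's RMA method, per the submitters' processing notes, which give no versions. RMA brings the arrays to a common distribution, so a shift of all genes cannot be seen, and no scaling was added. Of 45101 probe sets, 64 array controls were left out and 45037 tested. GEO's platform annotation named 1 gene for 34945 probe sets, several for 932 and none for 9224.

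In limma 3.58.1 (R 4.3.3), 1 mean per group was fitted and moderated by empirical Bayes, with Benjamini-Hochberg adjustment over all probe sets. A probe set passed at an adjusted p under 0.05, two-sided. All groups share 1 estimate of the spread. The fit was tested on simulated data. Listed genes were taken at the probe set with the highest mean, giving 18193 genes. Members, lists and rules were chosen with earlier results of these data known. In each list up to 4 genes past the threshold were named, or else the 2 largest absolute macrophage averages; members, HIN-200, RTP and interferon ligand genes, markers and the 5 genes most like each member could be named.

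Same-number arrays correlated at 0.24 to 0.43 in their deviations from group means (18 pairs), and different-number arrays at -0.31 to 0.02 (36 pairs). The numbers, from the sample titles, were therefore read as pairing the arrays, and a fit with the replicate block was run. Other alternatives were quantile normalization, centring, a filter on dim probe sets, 1 probe set per gene, the mean over probe sets, only the compared arrays, and leaving out each array. Leaving out a replicate number and combining 1 probe set per gene with the block were added after seeing the data.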

Additional observations from a re-analysis of the deposited data

Results flagged for a closer look

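The second Trim21 probe set moved in opposite directions with iron. RAW_FAC minus RAW was -0.07, -0.06 and -0.19 in numbers 1, 2 and 3, and FAC minus alone was 0.07, 0.18 and 0.26. The difference between both changes was -0.28 (limma interaction, adjusted p = 1.00, unadjusted p = 0.0325), so the opposite signs did not pass the test, and the leading probe set gave an interaction of -0.13.

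Reep6, a REEP gene listed beside the RTP genes, was higher in RAW_FAC than in FAC in 3 of 3 pairs (0.10, 0.19 and 0.40). It was lower in RAW than in alone in 3 of 3 pairs (-0.24, -0.07 and -0.06). The macrophage change with iron minus that without was 0.36 (limma interaction, adjusted p = 1.00, unadjusted p = 0.183). With iron it was higher in 6 of 6 pairs, by 0.42, 0.61 and 0.62 for RAW_FAC minus RAW and 0.07, 0.35 and 0.15 for FAC minus alone. The average of these iron differences was 0.37 (limma adjusted p = 0.851, and 0.0251 with the replicate block). Both results were found among 29 results examined.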

How the results depend on the processing

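The number of arrays limits the precision, and the count of called probe sets moved with the arrays kept. In the macrophage average 1 probe set was called higher, against 3 with the replicate block, 2 with 1 probe set per gene and 10 with both together. It was 0 to 28 without single arrays or numbers: 28 without replicate 1, 18 without RAW replicate 1 and 4 without RAW_FAC replicate 1, and 0 otherwise. RAW minus alone and RAW_FAC minus FAC had 0 called and 0 to 3 under the same exclusions, with 3 in each without replicate 1, and 2 and 1 without RAW replicate 1. Among interferon-stimulated genes 1 was called, against 3 with 1 probe set per gene and the block and 0 to 8 without single arrays or numbers, with 6 without RAW replicate 1 and 8 without replicate 1. The receptor and signalling list had 1, and 0 to 1 under exclusions. The TRIM list had 0, and 1 with 1 probe set per gene and the block. The HIN-200 list had 0, and 0 to 1 under exclusions, where Ifi202b passed without replicate 1. With iron, FAC minus alone had 0 called, against 1 lower with the block, and 4 higher and 2 lower with 1 probe set per gene and the block. RAW_FAC minus RAW had 0, against 4 higher and 4 lower with the block and 11 higher and 3 lower with both. The average had 0, against 130 higher and 36 lower with the block, 116 and 28 with both, 1 lower with 1 probe set per gene, and 0 to 1 each way without single numbers (1 without replicate 3). The replicate block gave no member an iron call. Over all alternatives the macrophage average of the leading probe sets was 1.94 to 3.19 for Xaf1, 1.69 to 3.00 for Rtp4, 1.16 to 1.95 for Mndal and 0.61 to 0.79 for Trim21. No value that was called changed direction. The causes were not tested.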
